A study of Mus musculus with 6 samples.

Results

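The genes described here are 10 regulators of the floor plate and ventral neural tube in the mouse embryo: Shh, Foxa2, Foxa1, Nkx2-2, Nkx2-9, Nkx6-1, Nkx6-2, Olig2, Olig1 and Spon1. Their probes were found by gene symbol, in the platform annotation or in the array's own description of a probe. Of the 10 genes, 9 had a probe, among 18532 genes that the array read with a probe of a single symbol, and Foxa1 had no probe under this rule. The 9 genes had 11 of the 34967 gene probes. The list came from knowledge of the tissue and not from a threshold on these values, but it was drawn up with earlier results of these data known.

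By its title, the study concerned dorsoventral patterning and cell death in the posterior neural tube and the part of Fkbp8 in both. Fkbp8 encodes a membrane-anchored protein of the FK506-binding family. RNA from 3 Fkbp8 mutant samples (a, b and c) was compared with RNA from 3 wildtype samples (d, e and f), each on its own 1-colour CodeLink array, where the brightness of a spot measures the RNA that binds its probe. The tissue was dissected behind the forelimb bud at E9.5, from litters of heterozygous carriers. The labels do not describe the mutant allele, the strain or the number of litters, and they leave unsettled whether mutant a, whose source is given as embryos, was a pool. The p-values below measure the spread between these 6 samples, and the small number of arrays limits their precision.

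The ventral neural tube is patterned by Sonic hedgehog, a secreted protein made first by the notochord, the rod of mesoderm below the neural tube, and then by the floor plate, the strip of cells at the ventral midline. Neural progenitors read its concentration and duration by switching on homeodomain and bHLH transcription factors in stripes along the dorsoventral axis, and neighbouring stripes repress each other's factors. Foxa2 marks the floor plate itself, Nkx2-2 and Nkx2-9 the stripe next to it, Olig2 the progenitors of motor neurons, and Nkx6-1 a broad ventral domain that spans these stripes.

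On the arrays 57.6 to 61.8% of gene probes were above background, the software's call that a spot's mean reached the local background median plus 1.5 of its standard deviations. Mutant c was the dimmest array, with 57.6% above background against 60.4 to 61.8% on the others, a median background-subtracted intensity of 52.1 against 60.7 to 65.1, and 21 saturated probes against 30 to 33. Fkbp8 (GE36340) checked the labels. Its log2 intensity was 6.28, 6.30 and 6.11 in mutants a, b and c, against 10.57, 10.74 and 10.67 in wildtypes d, e and f, and 0 of 3 mutant but 3 of 3 wildtype spots were above background. This set Fkbp8 at least 18.8-fold lower in mutants (limma adjusted p = 1.18e-07). Of 12 pan-neural progenitor genes, 12 were above background on enough arrays to be tested. The sexes differed with genotype: the Y-linked Eif2s3y was detected in 3 of 3 mutants and 0 of 3 wildtypes, and Xist, the RNA of the inactive X chromosome, in 0 of 3 mutants and 3 of 3 wildtypes. Genotype and sex cannot be told apart for any gene below. The arrays read RNA from the whole dissected piece, so more cells of a type and more RNA per cell cannot be told apart either.

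Promoter sequences are shown for the 3 members whose fitted change was at least 2-fold, Nkx6-1, Foxa2 and Nkx2-9. Each run is the 250 bases before the gene's start in RefSeq on GRCm38.p6, written 5′ to 3′ on the gene's own strand, which is the minus strand for all 3. They lie at chr5:101664712-101664961 (Nkx6-1), chr2:148046970-148047219 (Foxa2, before the outermost of 3 listed starts) and chr12:56613285-56613534 (Nkx2-9). Capitals would mark a match to a motif searched, and these 3 windows held none.
Nkx6-1: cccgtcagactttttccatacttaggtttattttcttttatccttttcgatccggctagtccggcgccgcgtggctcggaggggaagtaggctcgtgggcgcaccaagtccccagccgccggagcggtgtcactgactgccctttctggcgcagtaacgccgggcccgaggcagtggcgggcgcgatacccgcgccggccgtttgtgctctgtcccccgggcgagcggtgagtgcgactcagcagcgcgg
Foxa2: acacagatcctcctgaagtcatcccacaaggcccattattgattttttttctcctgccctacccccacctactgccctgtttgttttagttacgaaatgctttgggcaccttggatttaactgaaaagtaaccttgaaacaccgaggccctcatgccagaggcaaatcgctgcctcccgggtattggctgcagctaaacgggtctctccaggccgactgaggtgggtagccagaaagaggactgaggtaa
Nkx2-9: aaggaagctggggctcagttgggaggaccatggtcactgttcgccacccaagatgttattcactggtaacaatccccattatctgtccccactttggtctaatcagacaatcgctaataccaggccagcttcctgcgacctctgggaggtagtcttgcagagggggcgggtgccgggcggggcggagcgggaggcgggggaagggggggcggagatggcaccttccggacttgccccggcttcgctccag

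The 4 motifs searched on both strands were a Gli site (GACCACCCA), a forkhead core (TGTTTAC), an NK2-class core (TNAAGTG) and a homeodomain core (TAATTA). They occurred in 0.225%, 3.17%, 10.1% and 4.84% of the 32851 promoter windows of the same length, in that order, and a Gli site with at most 1 mismatch in 5.79%. Of the 10 members, 7 were in the promoter table, and Shh, Olig1 and Spon1 were not. Among the 7, a forkhead core lay in the Foxa1 window, at bases -141 to -135 from the start, and an NK2-class core in the Nkx2-2 window, at -197 to -191, and neither match overlapped another. The windows of Nkx6-2 and Olig2 held no match. GC content was 65.2% for Nkx6-1, 50.8% for Foxa2 and 61.6% for Nkx2-9, against a median of 52.4% over all windows. A match of letters is a description and not a binding site, and a window without one says only that these letters are not in it.

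Two-sided tests in limma showed 2 of the 7 tested probes of the members, Nkx6-1 and Foxa2, higher in mutants past an adjusted p of 0.05. Over all 21688 probes tested, 0.120% passed in either direction, 0.0646% as higher and 0.0553% as lower, and 0 member probes passed as lower. The tested probes stood for 6 genes: Nkx6-1, Foxa2, Nkx2-9, Spon1, Shh (with a pair of probes) and Olig2. Mutant and wildtype values did not overlap at 4 of the 7, those of Nkx6-1, Foxa2, Nkx2-9 and Spon1, and all 4 were higher in mutants, where 19.7% of all tested probes did not overlap and 11.2% did so with mutants higher. The same 4 were at least 1.5-fold higher, as were 0.327% of all tested probes, and 3 were at least 2-fold higher, as were 0.0830%. The median log2 fold change of the 7 was 0.67, against 0.0085 over all tested probes. At an unadjusted p under 0.05 there were 4 member probes, all higher, against 12.2% of all tested probes and 6.43% in that direction.

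**Figure D1:**
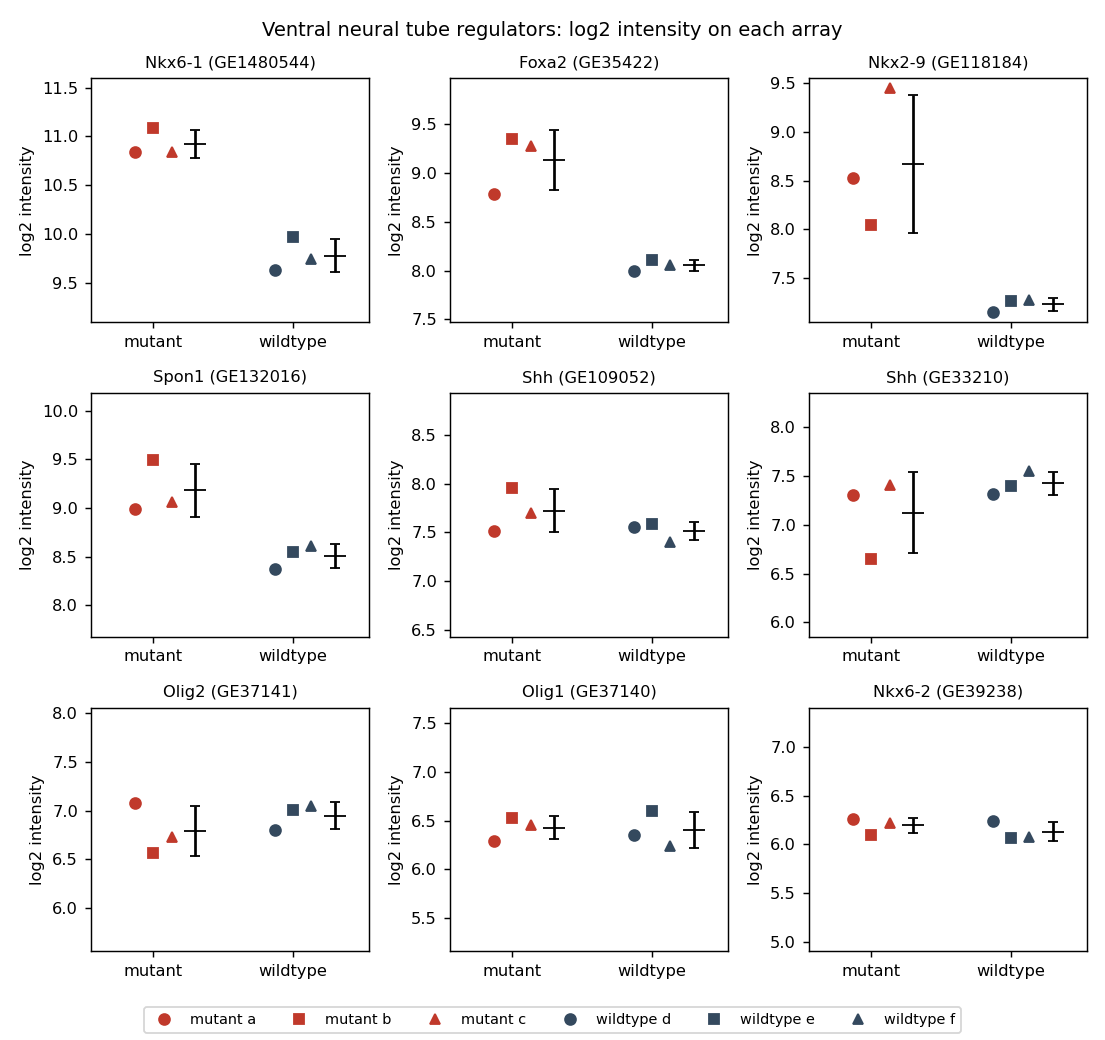
Log2 intensity (vertical axis, normexp-corrected and quantile-normalized) of each measured member probe on the 3 mutant (red, left) and 3 wildtype (blue, right) arrays, with the mean and SD of each group as a bar beside the points. Mutant points lie above all wildtype points for Nkx6-1, Foxa2, Nkx2-9 and Spon1, and the groups overlap in the other 5 panels.

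Nkx6-1, a homeodomain repressor of the ventral progenitor domain that is needed for motor neuron formation, had log2 intensities of 10.84, 11.08 and 10.84 in mutants a, b and c, against 9.63, 9.96 and 9.74 in wildtypes d, e and f. The lowest mutant value lay well above the highest wildtype value, and the mutant arrays were no more scattered than the wildtype arrays. Nkx6-1 rose 2.21-fold, averaging 10.92 ± 0.14 in mutants and 9.78 ± 0.17 in wildtypes (SD, n = 3 each), a fitted change of 1.14 on the log2 scale (SE 0.11, 95% confidence interval 0.89 to 1.39, limma adjusted p = 0.00853). The deposited normalized intensity of the same spots averaged 31.03 ± 3.02 in mutants and 13.32 ± 1.85 in wildtypes, a ratio of 2.33. Each mutant array exceeded the wildtype mean by a similar amount, 1.06, 1.30 and 1.06 in a, b and c on the log2 scale. The exact two-sided permutation test gave p = 0.1, the smallest that 3 against 3 allows. Over the alternatives its adjusted p ran from 0.00369 to 0.0697, and the call was lost without wildtype d (0.0594), without wildtype f (0.0624) and with plain background subtraction or deposited values (0.0688 to 0.0697).

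Foxa2, the forkhead transcription factor that specifies floor plate and is also made in notochord and gut endoderm, had log2 intensities of 8.78, 9.35 and 9.28 in mutants a, b and c, against 7.995, 8.11 and 8.06 in wildtypes d, e and f. The wildtype arrays were close together, while mutant a lay clearly below mutants b and c and still above every wildtype array. Foxa2 rose 2.12-fold, averaging 9.14 ± 0.31 in mutants and 8.05 ± 0.06 in wildtypes (SD, n = 3 each), a fitted change of 1.08 on the log2 scale (SE 0.14, 95% confidence interval 0.76 to 1.41, limma adjusted p = 0.0403). In deposited normalized intensity it averaged 8.371 ± 1.66 in mutants and 3.377 ± 0.181 in wildtypes, a ratio of 2.48, and the exact permutation p was again 0.1. The call changed with the arrays used more than the size did. The adjusted p was 0.107 without mutant b, 0.0946 without mutant c, 0.232 without wildtype d, 0.164 without e and 0.222 without f, in a range of 0.00159 to 0.232 over all alternatives. It was also 0.12 to 0.154 with plain background subtraction or deposited values and 0.0563 without the probes of chromosomes X and Y, while the log2 fold change stayed between 0.98 and 1.29.

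Nkx2-9, a homeodomain factor of the progenitors beside the floor plate, had log2 intensities of 8.52, 8.05 and 9.44 in mutants a, b and c, against 7.15, 7.26 and 7.27 in wildtypes d, e and f. Mutant c was far above mutant b, and all mutant arrays were above all wildtype arrays, which differed little. The fitted fold was 2.72, the 8th largest increase of 21688 probes, or 1.44 on the log2 scale (SE 0.29, 95% confidence interval 0.78 to 2.10), but the limma adjusted p of 0.168 did not pass. In background-subtracted intensity the spots read 320.1, 218 and 524.3 in mutants a, b and c and 87.58, 97.4 and 101.3 in wildtypes d, e and f. The deposited normalized intensity averaged 6.226 ± 3.45 in mutants and 1.494 ± 0.113 in wildtypes, a ratio of 4.17, and the fitted log2 fold change was 1.91 with floored or deposited values. Mutant c, the dimmest array, held the highest value. Only 0.733% of tested probes had a mutant SD at least as large as that of Nkx2-9, 0.71, while its wildtype SD was 0.07. The log2 fold change was 1.06 without mutant c and 1.76 without mutant b, and the adjusted p ran from 0.0621 to 0.458 over the alternatives.

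Spon1 encodes F-spondin, an extracellular matrix protein secreted by the floor plate that guides commissural axons. Its measured probe (GE132016) had log2 intensities of 8.99, 9.49 and 9.06 in mutants a, b and c, against 8.37, 8.55 and 8.61 in wildtypes d, e and f. Mutant b was the highest array and the groups did not overlap. Spon1 averaged 9.18 ± 0.27 in mutants and 8.51 ± 0.12 in wildtypes (SD, n = 3 each), a 1.59-fold difference that did not pass (log2 fold change 0.67, SE 0.13, limma adjusted p = 0.168, 0.106 to 0.448 over the alternatives). A second Spon1 probe (GE1422052), named by a cDNA clone, was masked by the scanner software on all 6 arrays, so the gene rests on a single probe here.

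**Figure D2:**
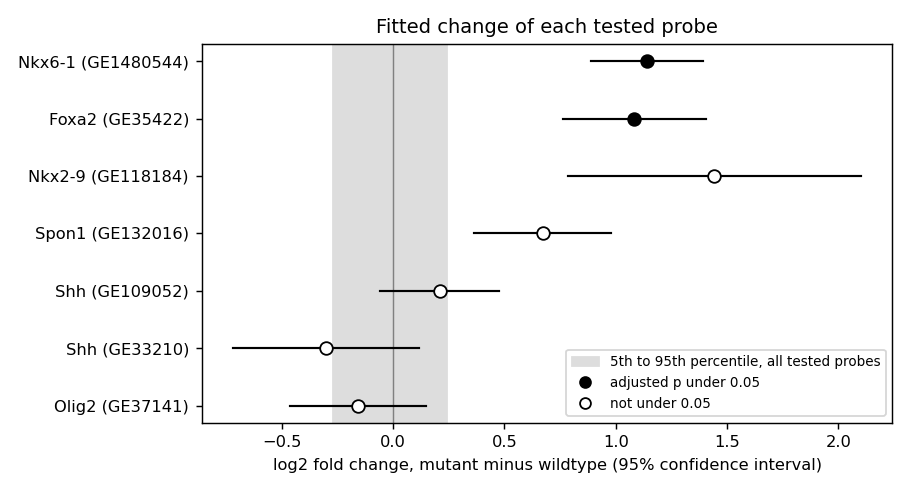
Fitted log2 fold change, mutant minus wildtype, of the 7 tested member probes (horizontal axis, points) with 95% confidence intervals (lines); filled points passed an adjusted p of 0.05, and the grey band spans the 5th to 95th percentile of all tested probes, -0.27 to 0.24. Nkx6-1, Foxa2, Nkx2-9 and Spon1 have intervals wholly above the band, and those of the Shh probes and Olig2 cross 0.

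Shh, the ligand itself, did not show a change past the test, and its probes pointed in opposite directions. At GE109052 the log2 intensity was 7.51, 7.95 and 7.69 in mutants a, b and c, against 7.55, 7.58 and 7.40 in wildtypes d, e and f. At GE33210 it was 7.31, 6.65 and 7.41 in mutants a, b and c, against 7.32, 7.40 and 7.56 in wildtypes d, e and f. Mutant b was the highest array at the first probe and the lowest at the other, although both probes name the same RefSeq transcript, and the groups overlapped at both.

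The fitted log2 fold change of Shh was 0.21 (SE 0.12, 95% confidence interval -0.06 to 0.47, limma adjusted p = 0.503) at GE109052 and -0.30 (SE 0.18, interval -0.72 to 0.11, adjusted p = 0.534) at GE33210. Over the 6 arrays the probes correlated at -0.892, a description in which mutant b lay farthest from the other arrays at both. The mean of both probes was 7.41, 7.30 and 7.55 in mutants a, b and c, against 7.43, 7.49 and 7.48 in wildtypes d, e and f, a difference of -0.05 (exact two-sided permutation p = 0.6). Both probes were above background on all 6 arrays, so Shh was detected in either group. The intervals allow an increase of up to 0.47 and a decrease of up to 0.72 on the log2 scale, at 1 probe or the other. In addition, 2 probes made for clones described as Shh products (GE1546590 and GE127181) fell outside the rule and were above background on no array.

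Olig2, the bHLH factor of motor neuron progenitors, was dim and did not differ past the test. Its log2 intensity was 7.08, 6.56 and 6.73 in mutants a, b and c, against 6.80, 7.002 and 7.05 in wildtypes d, e and f. Mutant a was the highest of all arrays and mutant b the lowest, so the groups overlapped. Olig2 averaged 6.79 ± 0.26 in mutants and 6.95 ± 0.13 in wildtypes (SD, n = 3 each), a fitted change of -0.16 on the log2 scale (SE 0.13, 95% confidence interval -0.46 to 0.15, limma adjusted p = 0.659). The interval leaves out a rise of the size seen for Nkx6-1 at this probe, on a scale that makes changes of dim probes smaller than they are. The spot passed the limit in 2 of 3 mutants, with mutant b just short at 0.993 of it, and in 3 of 3 wildtypes.

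Olig1, the bHLH gene next to Olig2, was at the limit of detection. Its spot passed the limit in 0 of 3 mutants and in 1 of 3 wildtypes, wildtype e, at 1.08 times the limit. Its log2 intensity of 6.30, 6.53 and 6.46 in mutants a, b and c, against 6.36, 6.60 and 6.24 in wildtypes d, e and f, overlapped (exact permutation p = 0.9). Its spot was brighter than 92.1 to 99.7% of the array's 320 negative control spots in mutants and 88.4 to 100% in wildtypes.

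Nkx6-2, a homeodomain relative of Nkx6-1 with a narrower ventral domain, was above background on no array. Its log2 intensity was 6.26, 6.10 and 6.22 in mutants a, b and c, against 6.25, 6.07 and 6.08 in wildtypes d, e and f (exact permutation p = 0.3). The values overlapped and lay within the range of the negative control spots, brighter than 54.1 to 87.7% of negative control spots in mutants and 38.9 to 90% in wildtypes. Neither Olig1 nor Nkx6-2 entered the test, and no fold is given for them.

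Nkx2-2, the homeodomain factor of the stripe next to the floor plate, gave no detection call. Its single probe (GE35809) was masked by the scanner software on all 6 arrays, as were 124 gene probes (0.35%), and so held no usable intensity in mutants or wildtypes. With Foxa1 unprobed, 2 of the 10 regulators were thus not analysed here, and Olig1 and Nkx6-2 have only detection calls and intensities near background.

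**Figure D3:**
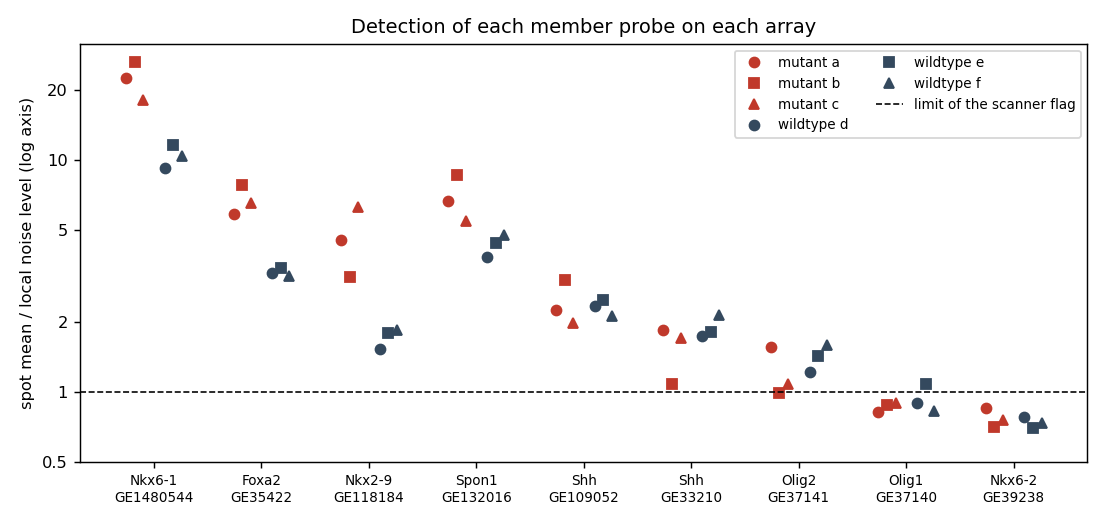
Spot mean divided by the local noise level (vertical log axis) for each measured member probe on the mutant (red, left) and wildtype (blue, right) arrays; the dashed line at 1 is the limit of the above-background call. Nkx6-1, Foxa2, Nkx2-9, Spon1 and both Shh probes lie above the line on all 6 arrays, Olig2 and Olig1 straddle it, and Nkx6-2 lies below it on all 6.

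The mutant arrays did not order the members in the same way. Taken against the wildtype mean, mutant b was the highest for Nkx6-1 (1.30), Foxa2 (1.30) and Spon1 (0.98), and mutant c was the highest for Nkx2-9 (2.22), where mutant b was the lowest (0.82). For Foxa2 and Spon1 mutant a was the lowest of the mutants, at 0.73 and 0.48. Over the 6 arrays the log2 intensities of Nkx6-1 and Foxa2 correlated at 0.961, those of Foxa2 and Spon1 at 0.944, and those of Foxa2 and Nkx2-9 at 0.836. After removal of the group means these were 0.515, 0.685 and 0.0742, in that order, and Spon1 with Nkx2-9 was -0.568. The likeness of Nkx2-9 to the others thus lay in the difference between groups, and that of the other pairs did so in part. These are descriptions over 6 arrays that share tissue, genotype and processing.

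Spread within the mutants also differed between members. The mutant SD was 10.5 times the wildtype SD for Nkx2-9, 5.48 times for Foxa2, 3.42 and 2.33 times at the Shh probes, 2.19 times for Spon1 and 1.94 times for Olig2, but 0.826 times for Nkx6-1. The median SD over all tested probes was 0.11 in mutants and 0.089 in wildtypes on the log2 scale. A mutant SD at least as large as that of Foxa2 was found for 5.17% of tested probes, and 35.2% had one at least as large as that of Nkx6-1.

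**Figure D4:**
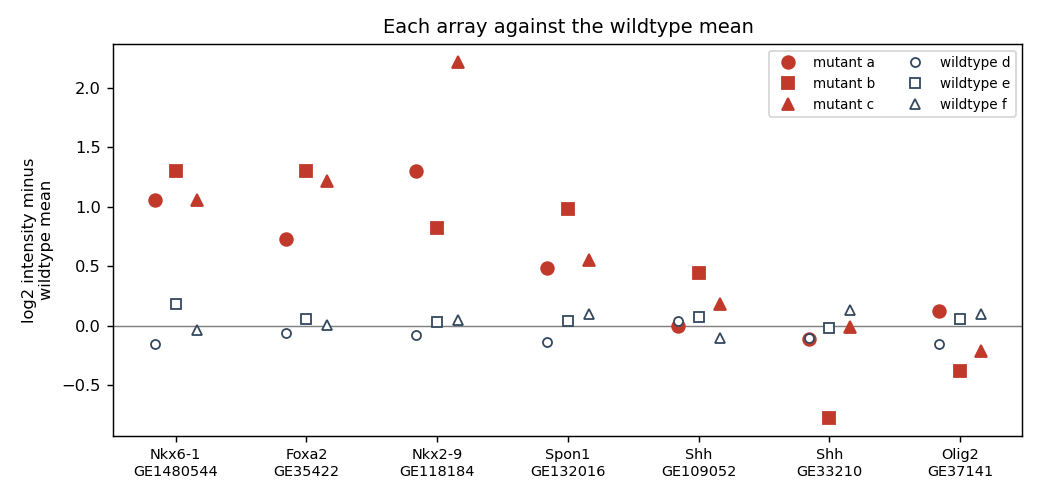
Log2 intensity minus the wildtype mean (vertical axis) of the 7 tested member probes on each array, mutants as filled red and wildtypes as open blue symbols. Mutant c stands far above the others for Nkx2-9 (2.22), and mutant b stands apart at both Shh probes, upward at GE109052 (0.44) and downward at GE33210 (-0.78).

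Other floor plate genes gave no call. Of 15 listed genes beyond the members, 10 were tested and 0 passed in limma in either direction, with 2 at an unadjusted p under 0.05. Of the 10, 7 had a fold change above 0, against 52.4% of all tested probes, and the list's median log2 fold change was 0.15. Their summed deposited normalized intensity was 97.1 to 120 in mutants and 93.5 to 96.1 in wildtypes, without overlap. This sum was led by its brightest probe, that of Sulf2, at a mean log2 intensity of 12.04 in mutants and 11.85 in wildtypes. The axon repellents Slit1 (log2 fold change 0.54, SE 0.10, limma adjusted p = 0.154) and Slit3 (0.29, SE 0.08, adjusted p = 0.239) and the sulfatase Sulf2 (0.19, SE 0.09, adjusted p = 0.461) had the smallest p. Netrin-1 (Ntn1), an attractant of commissural axons, and the transcription factor genes Ferd3l and Foxj1 were above background on no array. Of 5 genes listed for the stripe beside the floor plate and its neurons, 2 were tested and 0 passed. The tested genes were Nkx2-1 (-0.10, limma adjusted p = 0.71) and Uncx (-0.04, adjusted p = 0.958). Sim1, Neurog3 and Tal2 were above background on too few arrays to be tested, Sim1 on 1 mutant and 1 wildtype array, so their change is not known. How much of the Nkx2-1 and Uncx signal came from this stripe was not tested, so the list gives no reading of the stripe itself. Of 9 motor neuron genes, 5 were tested and 0 passed, with Neurog2 at 0.33 (adjusted p = 0.291) and Isl1 at -0.26 (adjusted p = 0.393).

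The hedgehog pathway and its response genes also gave few calls. Of 21 listed genes 18 were tested, 0 passed as higher, and 1 passed as lower, Scube2, whose product helps release hedgehog ligand from cells (log2 fold change -0.97, SE 0.10, limma adjusted p = 0.0118). Log2 fold changes were 0.48 for Ptch1, the hedgehog receptor and itself a target of the pathway (SE 0.08, adjusted p = 0.136), and for the sclerotome factor Pax1 0.37 (SE 0.08, adjusted p = 0.188). The target Gli1 stood at 0.23 (SE 0.07, adjusted p = 0.282). Among the listed genes of intermediate progenitors, 0 of 8 tested had a fold change above 0 and 3 passed as lower. These were Pax6 (-1.15), Irx3 (-0.65) and Prdm13 (-0.94), with limma adjusted p of 0.00287, 0.0178 and 0.0468. Of the 18 hedgehog genes tested, 11 had a fold change above 0, against 52.4% of all tested probes, with a median log2 fold change of 0.04. Summed deposited normalized intensities did not overlap for either list. They were 223 to 243 in mutants and 203 to 213 in wildtypes for the hedgehog genes, a sum led by its brightest probes, Ptch1 among them. For the intermediate progenitor genes they were 30.3 to 33.9 in mutants and 49.2 to 56.4 in wildtypes.

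Markers of tissues that share Foxa2 or Shh were read beside these results. Of 14 notochord genes, 9 were tested and 0 passed, with 2 fold changes above 0. Brachyury (T) stood at -0.11 (SE 0.10, limma adjusted p = 0.667). How much of the signal of T and the other tested genes came from notochord in the dissected piece was not tested. The smallest p were those of Sox9 at -0.24 (adjusted p = 0.356), Car3 at 0.21 (adjusted p = 0.432) and Nog at -0.22 (adjusted p = 0.608). The summed deposited normalized intensity of the notochord list was 76.7 to 91.1 in mutants and 85.3 to 86.2 in wildtypes, which overlapped. The defining Noto was unprobed, and Chrd was above background on 1 mutant array alone. Of 18 gut endoderm genes, 14 were tested and 0 passed, with sums of 118 to 136 in mutants and 121 to 133 in wildtypes and with Hnf4a and Onecut1 above background on no array. The summed intensity of the members was 53.6 to 62.6 in mutants and 24.5 to 29.7 in wildtypes, without overlap. Nkx6-1 led this sum, at a mean of 31.03 in mutants and 13.32 in wildtypes, so it restates the single values above. Erythroid genes had a fold change above 0 for 11 of 11 tested and 0 passed, with sums of 1270 to 1400 in mutants and 1120 to 1320 in wildtypes that overlapped. Their part in the members' values was not tested. Pan-neural progenitor genes, 12 of 12 tested, had 4 fold changes above 0 and a median of -0.13, with overlapping sums of 81.6 to 93.6 in mutants and 89.6 to 98.4 in wildtypes. In limma 0 of the 12 passed, with the smallest p for Hes3 (-0.73, adjusted p = 0.122), Sox2 (-0.50, adjusted p = 0.356) and Fabp7 (0.21, adjusted p = 0.397). Mutant and wildtype values did not overlap at 5 of the 12, in either direction, against 19.7% of all tested probes.

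Several members lie close together in the genome, so their neighbours were read by gene order in RefSeq on GRCm38.p6, without regard to their values, in an addition made after the arrays were analysed. Nkx2-9 lies on chromosome 12 between Nkx2-1 and Pax9. On the log2 scale the fitted change was -0.10 for its homeodomain relative Nkx2-1 (SE 0.10, limma adjusted p = 0.71) and for Pax9 0.27 (SE 0.13, adjusted p = 0.464), against 1.44 for Nkx2-9 itself. Foxa2 and Nkx2-2 lie on chromosome 2 with Pax1 between them (0.37, adjusted p = 0.188), and Sstr4 on the other side of Foxa2 had 0.12 (adjusted p = 0.531). The nearest tested neighbour of Nkx6-1 on chromosome 5, Gpat3, had -0.38 (adjusted p = 0.229). At these loci 0 of the neighbouring genes named here passed. Olig1 and Olig2 are adjacent on chromosome 16.

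The genes whose profile over the 6 arrays was most like a member's, among 14608 tested probes of other genes, were named as a description. For Nkx6-1 they were Epha1 (Pearson correlation 0.9966), Ptgr2 (0.9959) and Igfbp5 (0.9936). For Foxa2 they were the receptor gene Kit (0.9977), Pidd1 (0.9948) and Dyrk1a (0.9948). Nkx2-9 was most like Acd (0.9933), Clcn3 (0.9905) and 4933412E12Rik (0.9895), Spon1 like Pold4 (0.9983), Mtor (0.9926) and C2cd3 (0.9925). Shh at GE109052 was most like Myo5a (0.9916), Igf2r (0.9897) and Inip (0.9858), and Olig2 like Poc5 (0.9896), Adamts1 (0.9856) and another probe of Ptgr2 (0.9841). No gene named here for likeness passed the test. Each is a highest value of many compared over few arrays, and is given with no test.

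**Figure D5:**
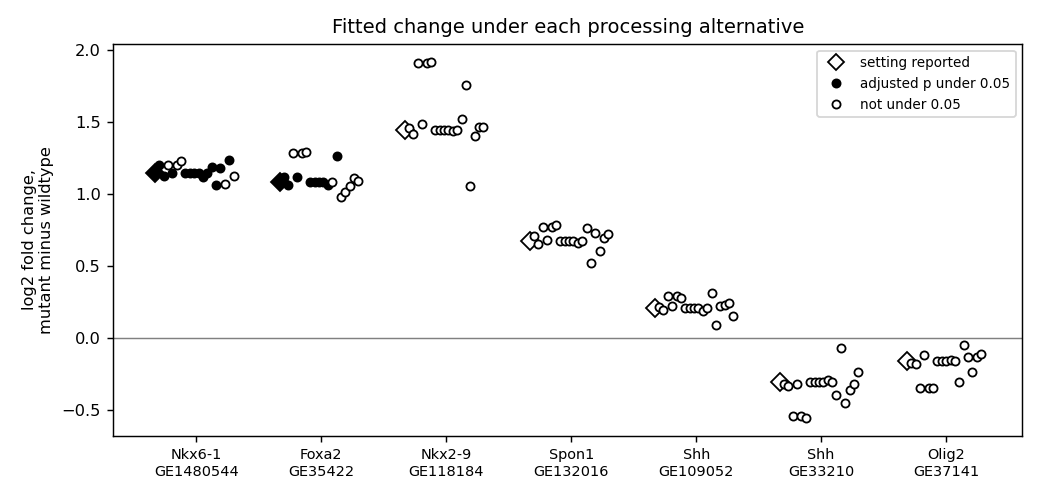
Log2 fold change, mutant minus wildtype (vertical axis), of the 7 tested member probes in the setting reported (diamond) and under each processing alternative (circles); filled symbols had an adjusted p under 0.05. Over up to 20 alternatives per probe each probe keeps its sign, Nkx6-1 passes in 15, Foxa2 in 11 and the other probes in 0. The alternatives that change only the threshold reuse the reported fit and are counted here but not drawn. Those of the filter, the intensity trend and the probes of chromosomes X and Y repeat the reported fold.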

How the data were processed

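RNA of 3 Fkbp8 mutant and 3 wildtype mouse samples was measured on 1-colour CodeLink arrays, grouped by sample title. Per the file headers, the authors quantified spots with CodeLink Expression Analysis 4.1.0.29054 as intensity, a spot's mean and its local background. The deposited normalized intensity is spot mean minus background median, scaled within each array (median 1 in the series table). The above-background flag and the limit given in the text differed at 1 of 207304 good or low spots.

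Here normexp (offset 50) was run on all spots in R 4.3.3 with limma 3.58.1. Control spots were left out, contaminated, irregular and masked spots became missing values (339 to 508 on an array), and quantile normalization followed on the log2 scale. Probes above background on at least 3 of 6 arrays, with 2 or more usable spots in each group, entered lmFit and eBayes, with Benjamini-Hochberg adjustment over 21688 probes and a threshold of 0.05. The fit was tested on simulated data. The offset makes fold changes of dim probes smaller than they are. The bound for Fkbp8 sets the wildtype mean against, per mutant array, the higher of its own value and the lowest value above background. Symbols came from the platform annotation, updated through RefSeq (GRCm38.p6), or from the array's descriptions; 22234 probes had 1 symbol, 204 several and 12529 none. A list's gene was read at its brightest probe. The genome build of the array's design was not given in the sources used.

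The members and lists were chosen with earlier results of these data known, so counts stand beside those of all tested probes. Named are all member probes, Fkbp8, and list genes that passed with up to 3 further ones of smallest p. Also named are the 3 genes most like each member, neighbours by gene order, Brachyury as a notochord marker, and markers not detected or not tested. The labels pair no samples. Alternatives changed the normalization, background correction, source of values, filter, variance model, threshold and arrays used.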

Additional observations from a re-analysis of the deposited data

How the results depend on the processing

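Over 20 alternatives, the 7 tested member probes kept their direction in all 139 values, 14 values lost a call and 0 gained one. Alternatives of the filter, the intensity trend, the threshold and the probes of chromosomes X and Y keep the reported fold. Their direction was thus fixed in advance, and only the remaining alternatives could have reversed it. Against 26 probes and 2 member probes past the threshold, median centring gave 16 and 2, background subtraction with a floor of 1 gave 13 and 0, the deposited series values gave 13 and 0, and the scanner's normalized intensity gave 15 and 0. The filter on all 6 arrays gave 16 and 2 and a 2-fold minimum 12 and 2. Without the probes of chromosomes X and Y, chosen after seeing the data, 14 and 1 passed. Leaving out each array gave 11 to 39 probes and 0 to 2 member probes, with 0 member probes without wildtype d or wildtype f, 1 without mutant b, mutant c or wildtype e, and 39 probes in all without mutant a. The cause of these shifts was not tested. Cyclic loess, no background correction, no filter, spots kept, an intensity trend, array weights and an adjusted p under 0.1 each gave 2 member probes. A block for slide or scan was not run, since each array was its own slide. No paired analysis was possible because the labels share no replicate numbers between mutant and wildtype. Dim signal limits Olig1, Olig2 and Nkx6-2.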
